A study of Mus musculus with 16 samples.

Results

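The 10 genes described here encode fibrillar and fibril-associated collagen chains and the chains of type VI collagen: Col1a1, Col1a2, Col3a1, Col5a1, Col5a2, Col5a3, Col6a1, Col6a2, Col6a3 and Col14a1. They were taken by name out of 49066 gene symbols measured by RNA sequencing of brown adipose tissue (BAT), and every one of the 10 passed the minimum level for testing in each comparison. The mice were 4 WT and 4 KO males and 4 WT and 4 KO females on a C57BL6/J background, 18 weeks old, which had eaten a high-fat diet (HFD, 60% of kcal from fat) for 12 weeks. All 16 mice carried floxed Gdf15 alleles. KO mice also carried a Cre recombinase driven by the Ucp1 promoter, which deletes Gdf15, a stress-induced circulating cytokine, in thermogenic adipocytes. WT mice were littermates without Cre, so Gdf15 remained intact in other cell types of the tissue in both genotypes. The comparisons ask whether loss of Gdf15 in these adipocytes goes with other collagen transcript levels in BAT of each sex.

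Collagens are triple helices of 3 chains that are secreted mainly by fibroblasts and related stromal cells. Type I collagen, the main fibre of connective tissue, is built from Col1a1 and Col1a2 chains, with Col1a1 chains in excess, and type III collagen from Col3a1 chains alone. Type V collagen (Col5a1, Col5a2 and Col5a3) sits inside these fibrils and limits their diameter. Type VI collagen combines the chains of Col6a1, Col6a2 and Col6a3 into beaded filaments around cells, and the end of the Col6a3 chain is released as a fragment called endotrophin. Col14a1 encodes a collagen that binds to the surface of fibrils. In obese adipose tissue these proteins are known for accumulating as pericellular and interstitial fibrosis.

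Values are TPM, a transcript abundance that is corrected for transcript length and brought to a common total in every library. Read depth is unknown for these values, so precision rests on the spread between mice. Mitochondrial transcripts took 34.5 to 59.8% of the TPM, and the 3 libraries with the highest share, male WT 1 (59.8%), female WT 2 (59.1%) and male WT 3 (53.3%), had the 3 lowest summed TPM of the 10 collagens (90.6, 119 and 100.2). In female WT mouse 4, 17.7% of the TPM came from transcripts without a gene match. Xist was at most 0.00892 TPM in male libraries and at least 25.3 TPM in female libraries, which matched every sex label. Gdf15 ranged from 0.368 to 3.81 TPM in male WT and from 0.0801 to 0.272 TPM in male KO mice, without overlap (p = 0.02857 in an exact permutation test, two-sided, the lowest value possible with 4 mice in each group). In females it ranged from 0.0622 to 0.311 TPM in WT mice and was listed at 0 in 3 of 4 KO mice, the other having 0.0794 TPM (exact permutation test, p = 0.0571).

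Promoter sequence is shown because all of the genes but Col14a1 varied closely together across libraries, as described below. RefSeq promoters were found for 7 of the 10 genes (Col1a2, Col3a1, Col5a1, Col5a3, Col6a1, Col6a2 and Col6a3) and not for Col1a1, Col5a2 and Col14a1. The 120 bases before the annotated start are printed 5′ to 3′ on the gene's strand for 1 gene each of types I, III and VI, on build GRCm38.p6, with capitals for the letters CCAAT (the CCAAT box), TATAAA (the TATA box) or TGANTCA (an AP-1 site), searched on both strands. The windows are Col1a2 at chr6:4505498-4505617 on the plus strand, Col3a1 at chr1:45311418-45311537 on the plus strand and Col6a1 at chr10:76726045-76726164 on the minus strand.
Col1a2: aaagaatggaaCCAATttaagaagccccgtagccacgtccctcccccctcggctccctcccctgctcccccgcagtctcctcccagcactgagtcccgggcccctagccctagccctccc
Col3a1: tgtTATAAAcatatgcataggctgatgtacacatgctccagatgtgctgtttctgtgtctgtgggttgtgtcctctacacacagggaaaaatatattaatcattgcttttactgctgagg
Col6a1: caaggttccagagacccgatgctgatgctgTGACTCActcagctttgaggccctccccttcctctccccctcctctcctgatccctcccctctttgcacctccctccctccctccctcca
The match began 109 bases before the start in Col1a2, 117 bases in Col3a1 and 90 bases in Col6a1. These are matches of letters only, and whether any of them acts as the named element was not tested. Over the 250 bases before each start, CCAAT was found in 2 of 8 promoter entries of these collagens (33.8% of all 32851 promoters), TATAAA in 1 (12.4%), the GC box GGGCGG in 5 (32.7%) and TGANTCA in 1 (6.75%). None of the 4 motifs was common to all entries. Among the type VI genes only Col6a1 held a motif printed in capitals, so its window does not represent Col6a2 and Col6a3. The GC box is not marked in the printed windows. Col6a1 and Col6a2 lie next to each other on chromosome 10, and Col3a1 and Col5a2 on chromosome 1, with 0 protein-coding genes between them in either pair. Col6a3 is also on chromosome 1, and Col5a1 is on chromosome 2, Col1a2 on 6, Col5a3 on 9, Col1a1 on 11 and Col14a1 on 15.

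Col3a1 was the most abundant of the 10 genes, and Col14a1 the least. Over the 16 libraries, Col3a1 averaged 74.8 ± 23.6 TPM (SD, n = 16), followed by Col6a1 (20.3 TPM), Col6a2 (19.8 TPM), Col1a2 (17.4 TPM), Col6a3 (15.8 TPM), Col5a3 (12.8 TPM) and Col1a1 (12.4 TPM). Col5a2 (4.63 TPM), Col5a1 (3.71 TPM) and Col14a1 (1.42 TPM) were lower. Of the 9 steps in this order, 3 were seen in every library: Col3a1 above Col6a1, Col1a1 above Col5a2 and Col5a1 above Col14a1. At the other steps the order was reversed in 1 to 5 of 16 libraries. Col3a1 made up 39.2 to 41.8% of the summed TPM of the 10 genes in each group's mean.

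The levels of Col6a3 and Col3a1 depended on which transcripts were counted. Of the Col6a3 TPM, 52.3% came from Col6a3-202, a protein-coding transcript of 9001 nt, and 46.5% from Col6a3-206, a transcript of 646 nt annotated as a retained intron. Of the Col3a1 TPM, 61.7% came from the 5564-nt Col3a1-201 and 29.1% from the 737-nt Col3a1-205. Reads that fit several transcripts of a gene are divided between them by estimate, and a few reads give a short transcript a high TPM. Counting only transcripts of at least 3000 nt, Col6a3 averaged 8.47 TPM and moved from rank 5 to rank 7, while Col3a1 stayed first at 46.2 TPM. Of Col14a1, 59.3% came from a transcript of 2085 nt. For Col1a1, Col1a2, Col5a1, Col5a2, Col5a3 and Col6a1, transcripts of at least 3000 nt held 97.7 to 100% of the TPM.

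**Figure D1:**
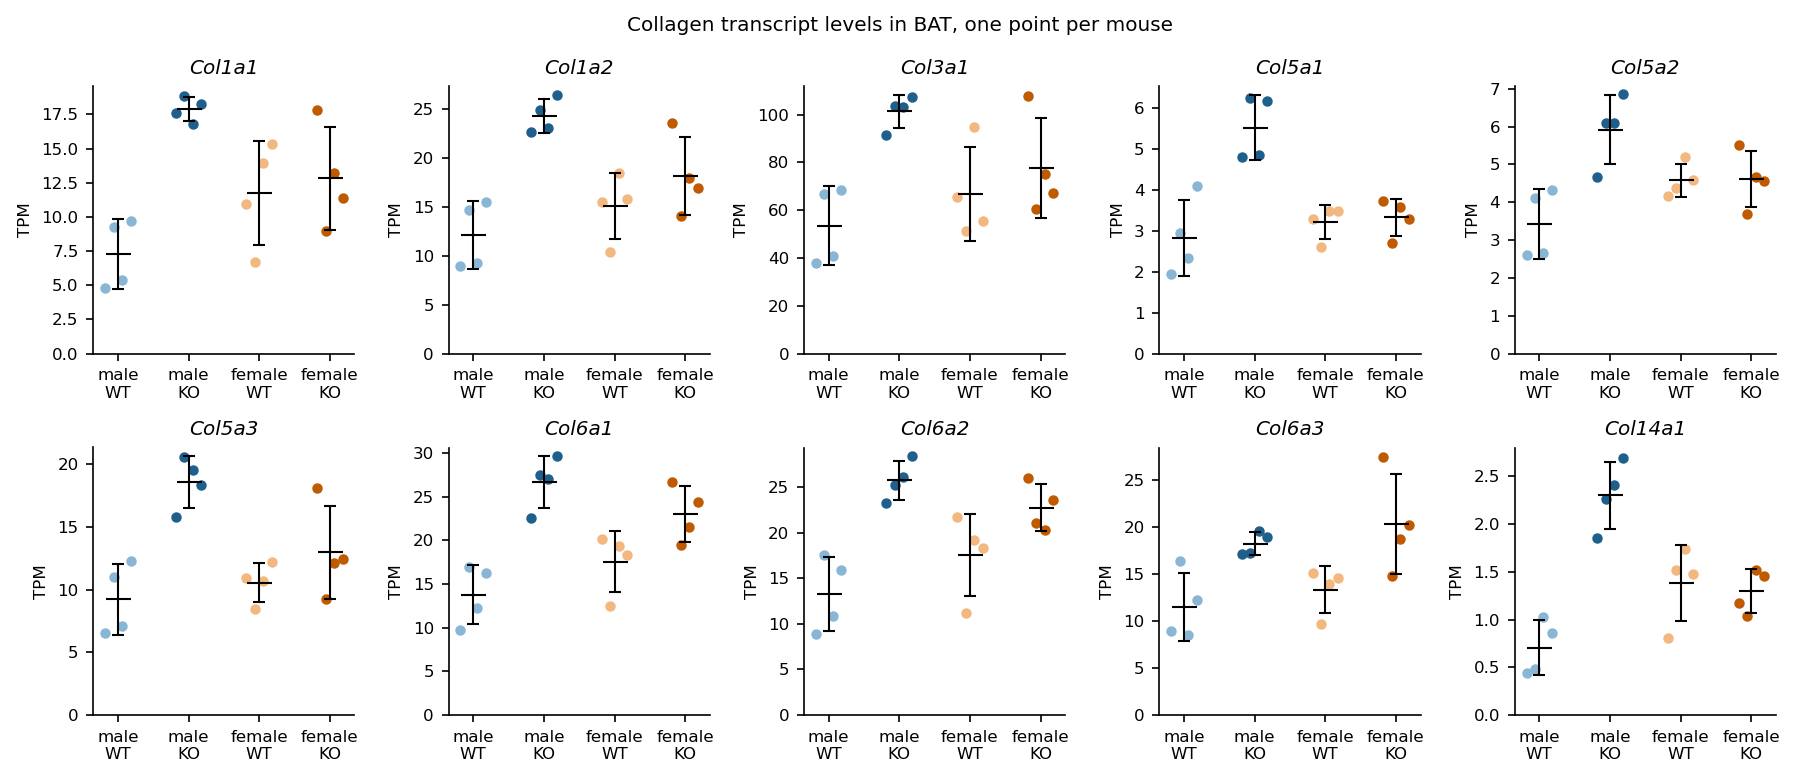
Transcript level in TPM (y axis) of each collagen gene in the 4 groups (x axis), with 1 point per mouse and the mean ± SD in black. All male KO points lie above all male WT points in each of the 10 panels, whereas female WT and KO points overlap in each.

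In males, all 10 collagens were higher in KO than in WT mice, with no overlap between the groups for any of them, but 0 of 10 passed the adjusted threshold. Log2 fold changes ran from 0.68 for Col6a3 to 1.30 for Col1a1, with a median of 0.97 against 0.16 for all genes tested. The background is given by all 12176 genes: 0.00821% passed the adjusted threshold of 0.05, 9.55% were higher in KO mice without overlap, and 17.7% were higher with an unadjusted p under 0.05, which held for 10 of 10 collagens (limma, in which the smallest adjusted p was 0.123). Of all genes, 79.9% had a fold change above 0. With median-of-ratios scaling the median of all genes was 0.00 and that of the collagens 0.80, with 10 of 10 still above 0. With mitochondrial transcripts removed before scaling, the medians were 0.07 and 0.88.

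Among the type I chains, Col1a1 had 4.80, 9.27, 5.38 and 9.67 TPM in male WT and 17.6, 18.9, 16.8 and 18.3 TPM in male KO mice. The lowest KO mouse was well above the highest WT mouse, and the log2 fold change was 1.30 ± 0.22 (SE, adjusted p = 0.123, limma). Col1a2 had 9.01, 14.7, 9.31 and 15.5 TPM in WT and 22.7, 24.9, 23.1 and 26.5 TPM in KO mice, and its log2 fold change was 1.01 ± 0.19 (SE, adjusted p = 0.135, limma). In both genes male WT mice 1 and 3 were the low animals. Col3a1, the chain of type III collagen, had 37.7, 66.9, 40.8 and 68.4 TPM in WT and 91.3, 103, 103 and 108 TPM in KO mice, for a log2 fold change of 0.97 ± 0.20 (SE, adjusted p = 0.146, limma). The mean of its 5564-nt transcript was higher by 0.98 on the log2 scale.

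Of the type V chains, Col5a1 had 1.94, 2.93, 2.33 and 4.08 TPM in male WT and 4.80, 6.23, 4.84 and 6.17 TPM in male KO mice. Col5a2 had 2.61, 4.11, 2.65 and 4.32 TPM in WT and 4.66, 6.09, 6.09 and 6.86 TPM in KO mice, and the gap between the highest WT and the lowest KO mouse was small. Col5a3, a chain of type V collagen with a more restricted distribution, had 6.57, 11.1, 7.10 and 12.3 TPM in WT and 15.8, 20.6, 19.6 and 18.3 TPM in KO mice. The log2 fold changes were 0.89, 0.73 and 1.01 in the same order, and the adjusted p-values ran from 0.142 to 0.170 (limma). Col5a3 was thus the most abundant of the type V chains in every library.

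Of the type VI chains, Col6a1 and Col6a2 had nearly the same levels and differences. Col6a1 had 9.73, 16.9, 12.3 and 16.2 TPM in male WT and 22.6, 27.5, 27.0 and 29.6 TPM in male KO mice (log2 fold change 0.95). Col6a2 had 8.87, 17.5, 10.8 and 15.9 TPM in WT and 23.2, 25.3, 26.1 and 28.4 TPM in KO mice (0.98). Col6a3 was closer, with 8.93, 16.4, 8.50 and 12.2 TPM in WT and 17.2, 17.2, 19.5 and 18.9 TPM in KO mice (0.68), so that the highest WT mouse was just under the lowest KO mouse. Adjusted p-values of the 3 genes were 0.135, 0.145 and 0.183 (limma). Col14a1, the fibril-associated chain, had 0.443, 0.484, 1.03 and 0.858 TPM in WT and 1.85, 2.26, 2.41 and 2.69 TPM in KO mice, and its log2 fold change was 1.24 ± 0.20 (SE, adjusted p = 0.123, limma) on a scale where the added 0.5 TPM makes differences of low genes smaller.

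The male KO mice were also more alike than the male WT mice. The coefficient of variation between mice was 24.6 to 40.8% for the 10 genes in male WT and 4.90 to 15.4% in male KO mice, and the difference in spread was not tested. Leaving out any male library gave a median log2 fold change between 0.81 (without male WT replicate 1) and 1.10 (without male WT replicate 2). The names of the libraries begin with numbers that the labels do not explain: 5, 5, 9 and 9 for male WT and 10, 9, 9 and 9 for male KO mice. Within the libraries of number 9, which hold 2 WT and 3 KO mice, the median of the 10 genes was 0.98 and that of all genes 0.14. With the spread estimated from all 16 libraries, 0.329% of all genes and 3 of 10 collagens passed: Col5a1 (adjusted p = 0.0395), Col6a1 (adjusted p = 0.0376) and Col14a1 (adjusted p = 0.0256, limma).

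In females, the collagens of KO and WT mice overlapped for all 10 genes, and 0 of 10 passed the adjusted threshold, as did 0% of all 12141 genes. Of the 10 fold changes, 9 were above 0, as were 62.7% of all genes, with a median of 0.24 against 0.10 for all genes. After median-of-ratios scaling only 7 of the 10 were above 0, and the medians were 0.14 and 0.00. An unadjusted p under 0.05 with KO higher was found for 1 of 10 collagens (Col6a3) and for 11.6% of all genes, and 4.89% of all genes were higher in KO mice without overlap. Female KO mouse 1 had the highest summed level of the 10 genes among females (258 TPM). Without it the median was 0.07 and 0 of 10 had an unadjusted p under 0.05, as was also the case without female WT mouse 2 (median 0.11). The female library names begin with 10, 8b, 8b and 8b in WT and 10, 5, 8b and 9 in KO mice. The median of the 10 genes was 0.22 within number 8b (3 WT and 1 KO mice) and 0.49 within number 10 (1 WT and 1 KO mouse), where all genes had medians of 0.03 and 0.00.

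Col1a1 had 10.9, 6.71, 13.97 and 15.3 TPM in female WT and 17.8, 8.94, 13.2 and 11.3 TPM in female KO mice, and its log2 fold change was 0.15 ± 0.28 (SE, adjusted p = 0.788, limma). Col1a2 had 15.5, 10.4, 18.5 and 15.9 TPM in WT and 23.6, 14.1, 18.02 and 16.99 TPM in KO mice, and Col3a1 had 65.4, 51.2, 94.9 and 55.7 TPM in WT and 108, 60.4, 75.3 and 67.3 TPM in KO mice. In these 3 genes KO mouse 1 was above every WT mouse and the other KO mice lay within the WT range. The log2 fold change was 0.27 for Col1a2 and 0.22 for Col3a1 (adjusted p = 0.496 and 0.617, limma).

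Col5a1, Col5a2 and Col14a1 were nearest to 0. Col5a1 had 3.28, 2.59, 3.49 and 3.47 TPM in female WT and 3.72, 2.70, 3.58 and 3.28 TPM in female KO mice, and Col5a2 had 4.16, 4.38, 5.19 and 4.58 TPM in WT and 5.52, 3.70, 4.68 and 4.56 TPM in KO mice. Col14a1 had 0.811, 1.52, 1.74 and 1.47 TPM in WT and 1.18, 1.03, 1.52 and 1.46 TPM in KO mice. Their log2 fold changes were 0.04, 0.00 and -0.05, with standard errors of 0.14, 0.14 and 0.22, and the sign of each, like that of Col1a1, changed under some settings. Col5a3 had 10.9, 8.48, 10.7 and 12.2 TPM in WT and 18.1, 9.23, 12.1 and 12.5 TPM in KO mice (log2 fold change 0.26), and only KO mouse 1 was well above the WT mice.

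The type VI chains had the largest female differences. Col6a1 had 20.1, 12.5, 19.4 and 18.3 TPM in female WT and 26.7, 19.5, 21.5 and 24.4 TPM in female KO mice, so that only WT mouse 1 overlapped with the KO mice (log2 fold change 0.39 ± 0.18, SE, adjusted p = 0.298, limma). Col6a2 had 21.7, 11.2, 19.1 and 18.3 TPM in WT and 26.0, 21.1, 20.3 and 23.5 TPM in KO mice (0.39 ± 0.20, SE, adjusted p = 0.341, limma). Col6a3 had 15.1, 9.67, 13.9 and 14.6 TPM in WT and 27.4, 14.8, 18.7 and 20.2 TPM in KO mice, again with WT mouse 1 above the lowest KO mouse, and a log2 fold change of 0.57 ± 0.21 (SE, adjusted p = 0.247, limma).

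The female Col6a3 value came mostly from the retained-intron transcript. Col6a3-206 had 6.03, 3.71, 4.55 and 4.50 TPM in female WT and 16.4, 6.37, 9.44 and 11.4 TPM in female KO mice, without overlap (exact permutation test, p = 0.02857, adjusted p = 0.120 over 21 transcript comparisons). The 9001-nt Col6a3-202 had 8.72, 5.78, 9.11 and 9.60 TPM in WT and 11.01, 8.35, 9.18 and 8.63 TPM in KO mice, and these groups overlapped (exact permutation test, p = 0.514, adjusted p = 0.667). In males the pattern of the 2 transcripts was the other way round. Col6a3-202 had 3.88, 6.56, 4.85 and 7.11 TPM in male WT and 9.17, 10.4, 9.62 and 10.6 TPM in male KO mice, without overlap (exact permutation test, p = 0.02857, adjusted p = 0.120), and Col6a3-206 had 4.94, 9.65, 3.54 and 4.85 TPM in WT and 7.93, 6.58, 9.70 and 8.09 TPM in KO mice, with overlap. Summed from transcripts of at least 3000 nt, the log2 fold change of Col6a3 was 0.80 in males and 0.13 in females, in place of 0.68 and 0.57. Comparing single transcripts was chosen after their values were seen. With 4 mice in each group 0.02857 is the lowest p of the exact permutation test. A transcript could thus pass only if most of the 21 comparisons reached that value.

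**Figure D2:**
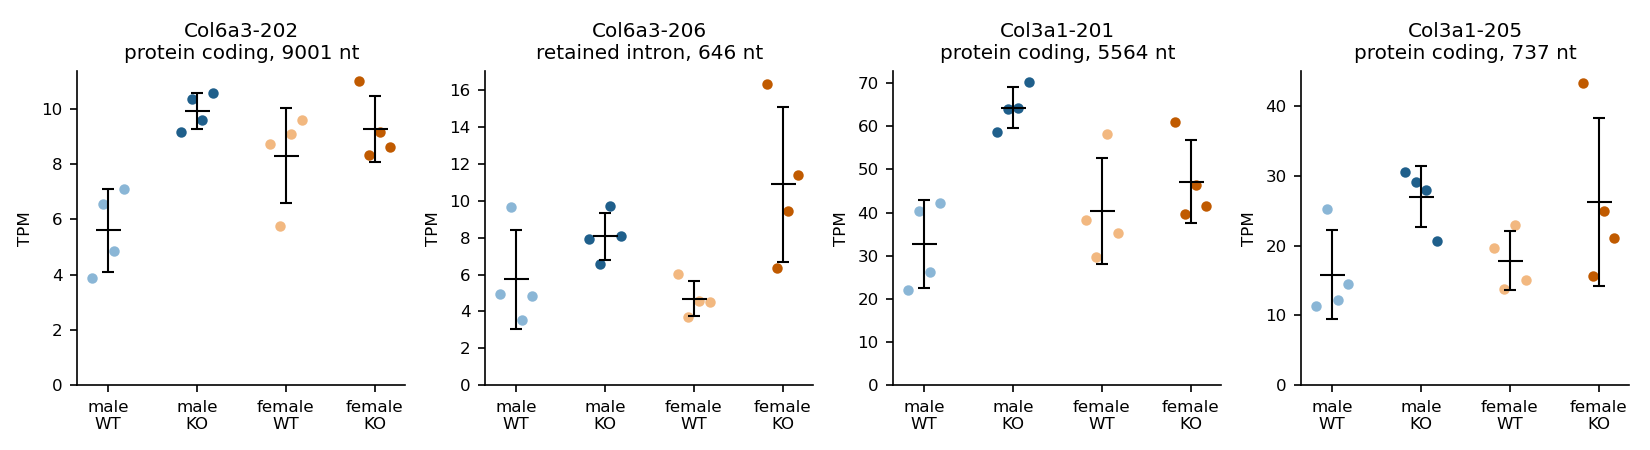
TPM (y axis) of the main transcripts of Col6a3 and Col3a1 in the 4 groups (x axis), with 1 point per mouse and the mean ± SD in black. Col6a3-202 separates the genotypes in males and overlaps in females, Col6a3-206 separates them in females and overlaps in males.

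The KO effect was compared between males and females by an interaction term. This term was above 0 (larger in males) for all 10 genes and for 57.1% of all genes tested. However, 0 of 10 passed the adjusted threshold, as did 0% of 12210 genes. The median interaction was 0.74 on the log2 scale against 0.06 for all genes. An unadjusted p under 0.05 in this direction was found for 8 of 10 collagens, against 11.7% of all genes. Col14a1 had the largest difference (1.29 ± 0.29, SE, adjusted p = 0.216, limma), followed by Col1a1 (1.16 ± 0.37, SE, adjusted p = 0.221, limma). Col6a3 had the smallest, 0.11 ± 0.30 (SE, adjusted p = 0.897, limma), which became 0.67 when only transcripts of at least 3000 nt were summed. With the number at the start of the library name as a covariate the median was 0.57, and 1 of 10 genes had an unadjusted p under 0.05. When each library was left out in turn, 5 to 9 genes had an unadjusted p under 0.05, with 5 without male WT 1, male WT 3 or female KO 2.

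**Figure D3:**
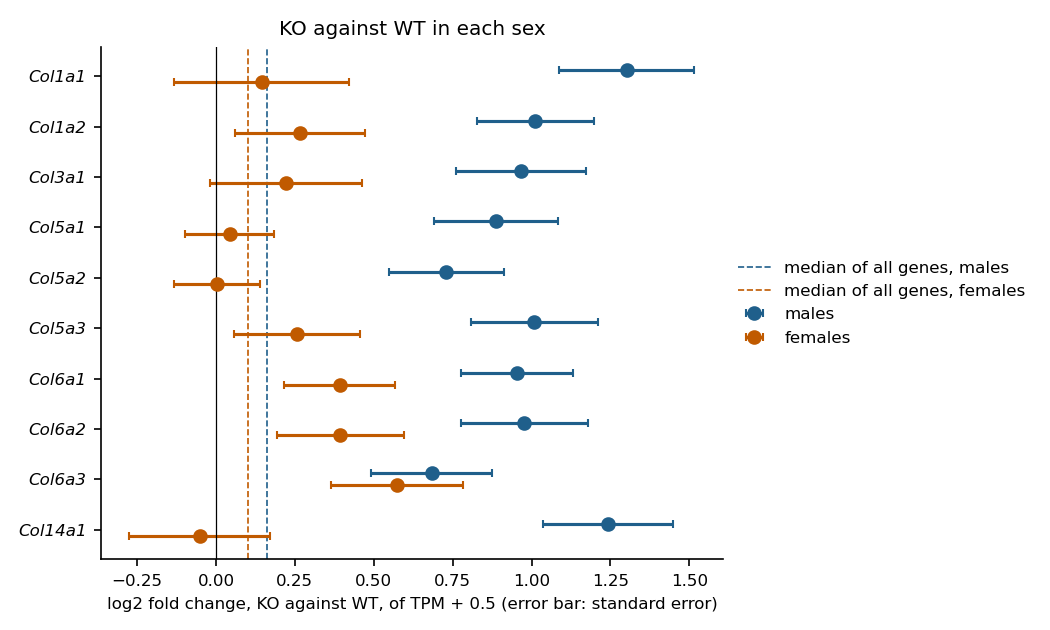
Log2 fold change of KO against WT with its standard error (x axis, on the scale of TPM + 0.5) for each collagen gene (y axis) in males and females, with dashed lines at the median of all genes tested. The male values lie between 0.68 and 1.30 and the female values between -0.05 and 0.57, and Col6a3 is the only gene whose error bars overlap between the sexes.

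The WT groups of the 2 sexes, which are the same libraries as in the comparisons above, overlapped for all 10 collagens. Female WT mice were higher in all 10, as in 37.7% of all genes, by a median of 0.34 on the log2 scale against -0.05 for all genes. The adjusted threshold was passed by 0 of 10 (0.0664% of 12042 genes passed it). An unadjusted p under 0.05 was found for 2 of 10 (Col5a2, 0.40, and Col14a1, 0.65), against 1.25% of all genes with females higher. Of all genes tested, 0.722% were higher in females without overlap. Without male WT replicate 1, 0 of 10 had an unadjusted p under 0.05 and the median was 0.20, and without female WT replicate 3 it was 0.21, again with 0 at that level. Without female WT replicate 4 there were also 0 (median 0.32). The female WT libraries carry the numbers 10, 8b, 8b and 8b and share none with male WT mice, so sex and that number cannot be told apart here.

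Ratios between chains were taken within each mouse, where the scaling of the library cancels. In males 6 of 12 ratios separated the genotypes, in females 0 of 12 and between the WT groups 1 of 12. All of those 6 but Col6a1/Col4a1 contain Col1a1, so they do not count as separate observations. The share of other gene pairs that separate was not computed. After adjustment over the 36 tests none passed (the smallest adjusted p was 0.147, exact two-sided permutation tests). With 4 mice in each group the lowest p of this test is 0.02857. A ratio could thus pass only if most of the 36 tests reached that value. The Col1a1/Col1a2 ratio was 0.532, 0.630, 0.579 and 0.622 in male WT and 0.777, 0.757, 0.728 and 0.690 in male KO mice (exact permutation test, p = 0.02857). Every male KO mouse thus had more Col1a1 per Col1a2 than every male WT mouse. In females the ratio was 0.705, 0.643, 0.755 and 0.966 in WT and 0.756, 0.635, 0.734 and 0.668 in KO mice, with overlap (exact permutation test, p = 0.514). Female WT mice were also above male WT mice without overlap (exact permutation test, p = 0.02857).

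Col3a1 per Col1a1 was 7.87, 7.22, 7.58 and 7.07 in male WT and 5.18, 5.48, 6.14 and 5.88 in male KO mice, lower in every KO mouse. In females it was 5.99, 7.63, 6.80 and 3.63 in WT and 6.04, 6.75, 5.69 and 5.93 in KO mice, where WT mouse 4 was lowest. Col6a1 per Col1a1 had a geometric mean of 1.94 in male WT and 1.48 in male KO mice without overlap, and was 1.55 in female WT and 1.84 in female KO mice with overlap. In male KO mice Col1a1 was thus higher relative to Col1a2, Col3a1 and Col6a1. Its ratios with Col5a1 and Col14a1, the other 2 members paired with it, overlapped. Ratios of Col1a1 with Col5a2, Col5a3, Col6a2 and Col6a3 were not taken. The geometric mean of Col5a1/Col1a1 was 0.39 in male WT and 0.31 in male KO mice (exact permutation test, p = 0.0857), and that of Col14a1/Col1a1, which differed in the opposite direction, was 0.10 and 0.13 (exact permutation test, p = 0.343).

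Col6a1 and Col6a2 kept the most even ratio. It ran from 0.924 to 1.13 over all 16 mice, and its geometric mean was 1.05 in male WT, 1.03 in male KO, 1.01 in female WT and 1.01 in female KO mice. The Col5a3/Col5a1 ratio had geometric means of 3.29 and 3.38 in male WT and KO mice and of 3.29 and 3.83 in female WT and KO mice. For Col5a1/Col5a2 they were 0.82 and 0.93 in males and 0.70 and 0.72 in females. The Col6a3/Col6a1 ratio was 0.82 and 0.68 in male WT and KO and 0.76 and 0.87 in female WT and KO mice, and its female difference was 0.19 on the log2 scale but -0.27 with transcripts of at least 3000 nt.

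Another pair of genes served as references from outside the 10. Col4a1 encodes a chain of basement membrane collagen, and Pdgfra a receptor that marks fibroblast progenitors. Col1a1 per Col4a1 was 0.0744, 0.0815, 0.0694 and 0.1004 in male WT and 0.138, 0.133, 0.110 and 0.123 in male KO mice, without overlap. In females it was 0.104, 0.0989, 0.139 and 0.137 in WT and 0.0938, 0.0684, 0.123 and 0.0634 in KO mice, with overlap. Col4a1 itself had 64.4, 114, 77.6 and 96.3 TPM in male WT and 128, 142, 153 and 148 TPM in male KO mice, without overlap. In females Col4a1 had 105, 67.8, 100.3 and 112 TPM in WT and 190, 131, 107 and 179 TPM in KO mice, with overlap. Ratios to Col4a1 thus also carry the differences of Col4a1. Col1a1 per Pdgfra was 4.09, 5.91, 4.11 and 5.19 in male WT and 9.83, 9.49, 9.27 and 10.0 in male KO mice, the largest difference of the 12 ratios in males (1.02 on the log2 scale, exact permutation test, p = 0.02857, adjusted p = 0.147). In females it was 7.02, 4.91, 7.49 and 5.37 in WT and 7.23, 5.60, 8.72 and 4.85 in KO mice. Pdgfra itself had 1.17, 1.57, 1.31 and 1.87 TPM in male WT and 1.79, 1.99, 1.82 and 1.82 TPM in male KO mice, with overlap. It is 1 of 15 listed fibroblast progenitor markers. Of the 12 tested in males, 7 were higher in KO mice without overlap, against 9.55% of all genes. Ratios of Col1a1 to the other markers were not taken. Within the libraries of number 9 (2 WT and 3 KO males), the differences were 0.27 for Col1a1/Col1a2, -0.33 for Col3a1/Col1a1, 0.54 for Col1a1/Col4a1 and 1.06 for Col1a1/Pdgfra.

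**Figure D4:**
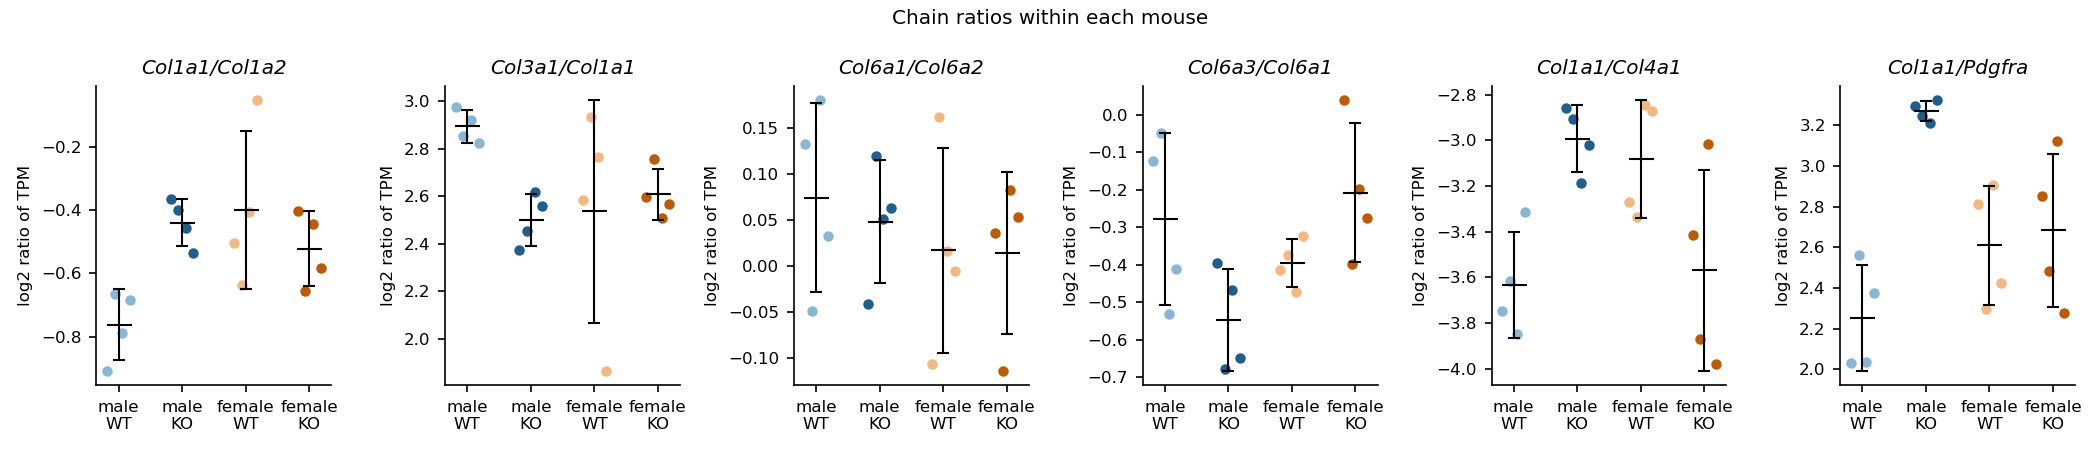
Log2 ratio of TPM within each mouse (y axis) for 6 pairs of genes in the 4 groups (x axis), with 1 point per mouse and the mean ± SD in black. Male KO and WT mice are apart for Col1a1/Col1a2, Col3a1/Col1a1, Col1a1/Col4a1 and Col1a1/Pdgfra, and overlap for Col6a1/Col6a2 and Col6a3/Col6a1.

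Across the 16 libraries the collagens other than Col14a1 varied closely together. The closest pairs were Col6a1 with Col6a2 (Pearson r = 0.99, Spearman rho = 0.98, n = 16) and Col1a1 with Col1a2 (r = 0.97, rho = 0.97). Each had a permutation p of 1e-05 for r and for rho, the smallest that 100000 resamples give. Adjusted over 8 pairs, these permutation p-values were under 2.29e-05 for r and 4e-05 for rho. The r was 0.93 for Col1a1 with Col5a3, 0.92 with Col6a1 and 0.91 with Col3a1, 0.90 for Col6a1 with Col6a3 and 0.88 for Col5a1 with Col5a2, with rho of 0.86 to 0.89 and adjusted permutation p-values of at most 8e-05. Without the 2 libraries farthest from the median of the first gene (male WT 1 and 3, or male KO 2 and 4 for Col5a1), r stayed between 0.83 and 0.97 for these 7 pairs. For the deviations from the group means, which remove differences between groups, it was 0.81 to 0.97. The permutations exchanged libraries across groups, so their p-values also include differences between groups. The r of the deviations was not tested. All of these share the scaling of TPM, and after median-of-ratios scaling r ran from 0.69 to 0.98 over the 8 pairs.

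Col14a1 stood apart. Its r with Col1a1 was 0.72 (rho = 0.74, permutation p = 0.00169 and 0.00154, n = 16) and 0.64 without male WT mice 1 and 3, but 0.10 for the deviations from the group means. Over all 45 pairs r ran from 0.42 to 0.99. For the 9 pairs with Col14a1 the median r was 0.69 and the median r of the deviations was 0.08, whereas for the other 36 pairs they were 0.90 and 0.84. Within groups, Col14a1 thus varied little with the other chains, at levels of 0.443 to 2.69 TPM.

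**Figure D5:**
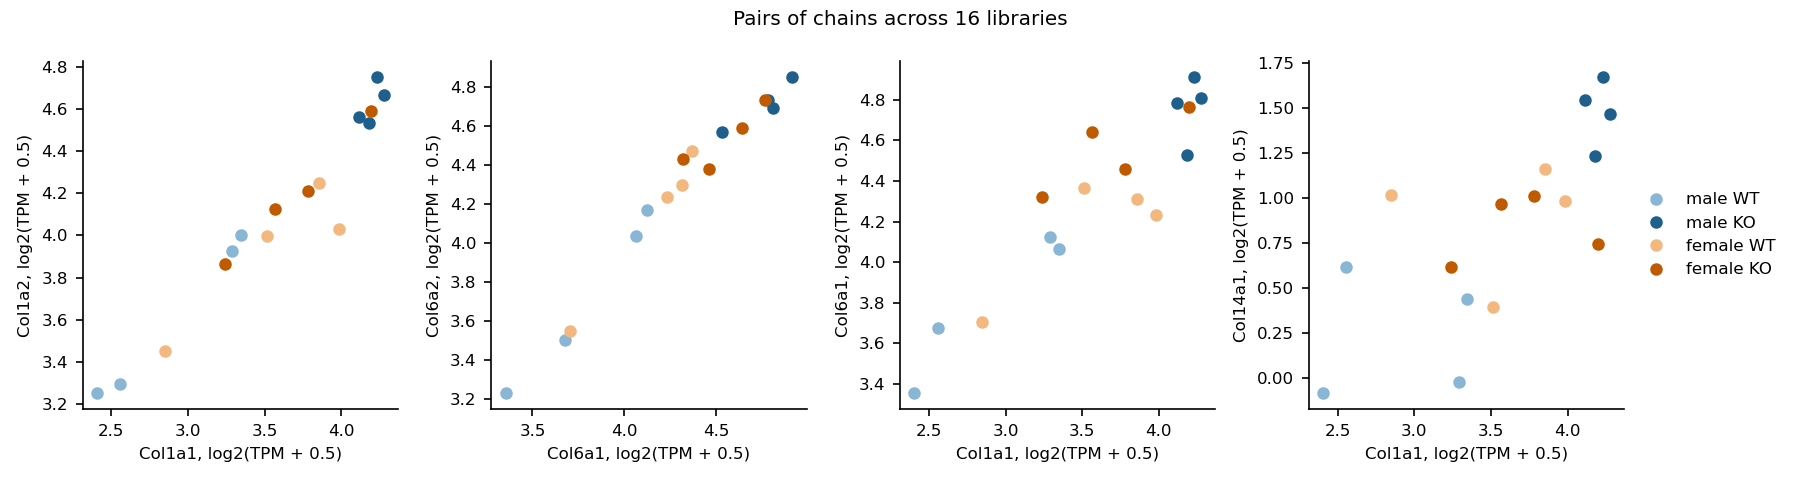
Log2(TPM + 0.5) of pairs of collagen genes on the x and y axes, with 1 point per library, coloured by group. Col6a1 with Col6a2 and Col1a1 with Col1a2 lie close to a line (r = 0.99 and 0.97), and Col1a1 with Col14a1 is scattered within groups (r = 0.72).

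Among 12200 genes outside the 10, the patterns most like the mean of the standardised collagens over the 16 libraries were those of Fstl1 (r = 0.95), Serpinf1 (0.94), Ucp2 (0.93), Timp2 (0.92), Cd248 (0.92), Smg8 (0.92), Fn1 (0.92), Loxl2 (0.91), Tmem176b (0.91) and Stab1 (0.91). Fstl1 and Serpinf1 encode secreted glycoproteins, Timp2 an inhibitor of matrix metalloproteinases, Fn1 fibronectin and Loxl2 an enzyme that crosslinks collagen. Stab1 is a scavenger receptor of macrophages and endothelial cells, and Ucp2 a mitochondrial carrier. These correlations are a description over libraries that share their scaling.

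The other genes of the collagen pathway had smaller median differences than the 10 in males. Levels were not matched between the lists, and the added 0.5 TPM makes differences of low genes smaller. Their counts stand against 79.9% of all genes above 0 and 17.7% with KO higher at an unadjusted p under 0.05. Of 34 other collagen genes, 12 could be tested: 11 were above 0, with a median log2 fold change of 0.54, 5 had an unadjusted p under 0.05 with KO higher and none passed the adjusted threshold. Col4a1 (0.72) and Col4a2 (0.70), the basement membrane chains, had the smallest p. Of 26 tested genes of collagen processing and crosslinking 25 were above 0 (median 0.32) and 10 had an unadjusted p under 0.05, led by Pcolce (0.82), which enhances procollagen cleavage, and the lysyl oxidase family members Loxl2 (0.68) and Loxl3 (0.62). Of 13 tested matrix proteins that bind collagen 12 were above 0 (median 0.57) and 8 had an unadjusted p under 0.05, with Bgn, a small proteoglycan, at 0.88 and Fn1 at 1.31.

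Of 8 tested collagen-degrading enzymes and their inhibitors, all were above 0 in males (median 0.54) and 6 had an unadjusted p under 0.05, among them Timp2 (0.95) and the collagenolytic protease Ctsk (0.77). Of 14 tested regulators 12 were above 0 (median 0.30) and 7 had an unadjusted p under 0.05, led by Ccn2 (1.42), a matricellular protein induced by TGF-beta. Of 7 tested collagen receptors 7 were above 0 (median 0.29), 2 of them with an unadjusted p under 0.05, which is near the shares of all genes. None of these passed the adjusted threshold.

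In females the same lists had medians of 0.14 for other collagens, 0.30 for processing, 0.39 for matrix binding, 0.37 for degradation, 0.21 for regulators and 0.01 for receptors, against 0.10 for all genes, and again no gene passed. Loxl3 was 0.70, the prolyl hydroxylase P4ha1 1.41 and Col4a1 0.64, whereas Pcolce was -0.30 and the TGF-beta receptor Tgfbr1 -0.46. The processing enzymes thus had a female median close to the male one, while the 10 collagens did not, although the difference between these lists was not tested.

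Marker lists of other cell types were measured in the same libraries. In bulk tissue, more cells of a type and more RNA per cell cannot be told apart. The counts stand against 79.9% of all genes above 0 in males and 62.7% in females. Of all genes in males, 17.7% had an unadjusted p under 0.05 with KO higher (limma). In addition 9.55% were higher in KO mice without overlap and 0.00821% passed the adjusted threshold. Brown adipocyte markers defined the tissue in every library, with a summed TPM of 7601 to 15395 over the 12 listed genes and none at 0, and had medians of -0.03 in males and 0.23 in females. Of 12 tested markers of fibroblast progenitors 11 were above 0 in males (median 0.56), 8 had an unadjusted p under 0.05 with KO higher, 7 were higher in KO mice without overlap, and 1 passed the adjusted threshold (Mfap5, an elastic microfibril protein, 1.61, adjusted p = 0.0197, limma). The summed TPM of the 15 listed fibroblast genes ran from 273 to 491 in male WT and from 421 to 525 in male KO mice, with overlap, and most of it came from Gsn and Ly6a. The other 13 genes summed to 31.2 to 50.6 TPM in male WT and 70.01 to 82.8 TPM in male KO mice, without overlap, and to 43.7 to 52.6 and 56.2 to 82.3 TPM in female WT and KO mice, also without overlap. The sum of all 15 in females ran from 388 to 455 in WT and from 420.3 to 744 in KO mice, and the median was 0.36 with 10 of 11 above 0.

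Macrophage markers had a male median of 0.90, with 12 of 13 above 0 (79.9% of all genes). Of these markers 11 had an unadjusted p under 0.05 with KO higher (17.7% of all genes). There were 8 higher without overlap (9.55% of all genes), but none passed the adjusted threshold (limma). Their summed TPM overlapped, at 637 to 801 in male WT and 698 to 817 in male KO mice, and was mostly Lpl, the lipoprotein lipase that adipocytes also express. The other 13 genes summed to 51.3 to 103 TPM in male WT and 132 to 189 TPM in male KO mice, without overlap, and to 61.6 to 130.2 and 84.9 to 128 TPM in female WT and KO mice, with overlap. These sums without the most abundant genes were chosen after the values were seen. In females the median was 0.19, and the sum of all 14 was 476 to 788 in WT and 547 to 1289 in KO mice. Endothelial and mural markers had larger medians in females (0.76 and 0.62) than in males (0.29 and 0.41). The endothelial sum was 253 to 406 in female WT and 432 to 885 in female KO mice, without overlap, and 279 to 558 and 450.1 to 528 in males. The mural sum was 174 to 257 in male WT, 223 to 308 in male KO, 172 to 199 in female WT and 216 to 344 in female KO mice. No gene of these 4 lists was at 0 throughout a group.

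Skeletal muscle markers varied most between libraries, with a summed TPM of 19.01 to 2041 in male WT, 10.7 to 4749 in male KO, 2.14 to 1361 in female WT and 6.45 to 4194 in female KO mice. Their medians were 0.45 in males and 1.20 in females, and 0 of 10 had an unadjusted p under 0.05 in either sex (limma). White adipocyte markers had medians of -0.14 in males and -0.30 in females, and Schwann cell and nerve markers of 0.15 and -0.03. Of the lymphocyte list only Ptprc could be tested (0.45 and -0.16). Of the mesothelial list only Krt19 could be tested, and only in females (0.63), and Upk1b was at 0 in all mice of every group but female WT. The part of any of these cell types in the collagen levels was not tested.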

How the data were processed

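BAT from 16 mice was sequenced in stranded mRNA libraries with single-end reads. According to the labels and methods, the authors assigned reads to transcripts with kallisto 0.46.2 on GRCm39 and deposited TPM per transcript, without read numbers, so depth is unknown. The annotation release is not given in the sources used here. The authors' own test, DESeq2, needs counts and was not run. Transcript identifiers were matched without version to GENCODE mouse M21 (135051 of 137438) and summed per symbol. Coordinates of genes are not given, because that release is on another build, and promoters are from RefSeq on GRCm38.p6.

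Genes whose TPM averaged 1 or more over the libraries compared were tested as log2(TPM + 0.5) with limma 3.58.1 (eBayes with trend, R 4.3.3), adjusted by Benjamini-Hochberg over all genes with a threshold of 0.05, in males, in females, for their difference over 16 libraries and between WT groups. Fold changes on this scale understate changes of low genes. Ratios used exact two-sided permutation tests without a pseudocount, and correlations 100000 resamples (scipy 1.17.1). The difference of a ratio's KO effect between the sexes was set against all rearrangements of genotype within sex, with no KO effect in either sex as the null. The procedure was tested on simulated data. Members and lists were chosen with earlier results of these data known. Named genes are the 10 collagens, Gdf15, ratio partners, up to 3 genes per list and sex with the smallest p, sex genes, the 10 genes most correlated with the collagens and transcripts with at least 10% of a member's TPM. Replicates are separate mice numbered in the labels. Mice were not treated as paired by these numbers in the main tests, and the labels do not say whether mice of the same number belong together. Alternatives were another pseudocount, filter, scaling, transcript set, covariate or model, and leaving out each library.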

Additional observations from a re-analysis of the deposited data

Results flagged for a closer look

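For 4 chain ratios, the male KO effect minus the female one passed the adjusted threshold in an exact two-sided permutation test. The test rearranged genotype within each sex (4900 arrangements, adjusted over 12 ratios). Its null is no KO effect in either sex, which is not the same as an equal effect in both. On the log2 scale, the male effect minus the female effect was 0.44 for Col1a1/Col1a2 (adjusted p = 0.0429), -0.46 for Col6a3/Col6a1 (adjusted p = 0.0429), 1.13 for Col1a1/Col4a1 (adjusted p = 0.0392) and 0.49 for Col6a1/Col4a1 (adjusted p = 0.0429, exact permutation tests). Each of these 4 ratios contains Col1a1 or Col6a1, so they do not count as separate observations. The share of other gene pairs that would pass this test was not computed. All 4 male KO mice were above all 4 male WT mice in Col1a1/Col1a2, Col1a1/Col4a1 and Col6a1/Col4a1, while the female groups overlapped in each. Col6a1 per Col4a1 was 0.151, 0.149, 0.158 and 0.168 in male WT, 0.177, 0.194, 0.176 and 0.1999 in male KO, 0.191, 0.185, 0.193 and 0.163 in female WT and 0.1404, 0.149, 0.201 and 0.136 in female KO mice.

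These calls were close to the threshold. When each of 16 libraries was left out in turn, the difference ran from 0.33 to 0.52 for Col1a1/Col1a2, from -0.54 to -0.38 for Col6a3/Col6a1, from 0.99 to 1.31 for Col1a1/Col4a1 and from 0.43 to 0.62 for Col6a1/Col4a1, and 4, 5, 9 and 5 of the 16 fits in that order remained past the threshold (highest adjusted p = 0.116, exact permutation). Fewer libraries also allow fewer arrangements. Summed from protein-coding transcripts alone, the differences were 0.44, 0.13, 0.95 and 0.31 and none passed (adjusted p = 0.0656, 0.478, 0.0656 and 0.276, exact permutation). With transcripts of at least 3000 nt, the Col6a3/Col6a1 difference was 0.14 (adjusted p = 0.425, exact permutation), of opposite sign, and the other 3 still passed. Among the 8b libraries (3 female WT, 1 female KO), Col1a1/Col4a1 differed by 0.00054 and Col6a1/Col4a1 by 0.16, and between the female mice of number 10 (1 WT, 1 KO) by -0.14 and -0.44. Whether that number plays a part was not tested.

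No mouse stood apart from its group by Dixon's test in 88 groups of 4 values (10 genes and 12 ratios), where chance would flag about 1 in 20.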

How the results depend on the processing

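In males, 10 of 10 collagens stayed above 0 under every alternative run (9 of 9 or 7 of 7 where fewer could be tested), and the median ran from 0.80 (median-of-ratios scaling) to 1.10. Where the main result was 0 collagens past the adjusted threshold, 1 passed with mitochondrial transcripts removed (Col1a1), 3 with all 16 libraries in one fit and 1 with protein-coding transcripts only (Col14a1), where 0.0867%, 0.329% and 0.174% of all genes passed. No collagen passed in females, between the WT groups or in the interaction.

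Small female differences changed sign. With mitochondrial transcripts removed they were -0.00225 for Col1a1, -0.10 for Col5a1 and -0.14 for Col5a2. With median-of-ratios scaling Col5a1 was -0.048 and Col5a2 -0.093, and with unmatched transcripts removed -0.017 and -0.0588. Col5a2 was -0.00153 with protein-coding transcripts or those of at least 3000 nt, and Col14a1 was 0.12 with the library number as covariate. Leaving out single libraries gave -0.089 to 0.30 for Col1a1, -0.041 to 0.13 for Col5a1, -0.078 to 0.094 for Col5a2, -0.22 to 0.0399 for Col14a1, and -0.025 to 0.29 for the interaction of Col6a3.

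Ratios with groups apart numbered 1 in females with protein-coding transcripts and 1 with those of at least 3000 nt (main 0), and 2 in WT mice with 0.5 TPM added (main 1). With protein-coding transcripts and with those of at least 3000 nt, Col6a3/Col6a1 was -0.26 and -0.27 in females, 0.23 and 0.24 in WT mice and 0.13 and 0.14 for the sex difference, and Col5a3/Col5a1 in WT mice -0.00692 and -0.0158. Col14a1/Col1a1 in males was -0.059 with 0.5 TPM added. Leaving out single libraries changed signs of ratios near 0. In females the ranges were -0.15 to 0.20 (Col3a1/Col1a1), -0.032 to 0.11 (Col5a1/Col5a2), -0.21 to 0.045 (Col5a1/Col1a1), -0.044 to 0.046 (Col6a1/Col6a2), -0.44 to 0.098 (Col14a1/Col1a1) and -0.071 to 0.21 (Col1a1/Pdgfra). They were -0.044 to 0.11 in males and -0.0398 to 0.069 in WT mice for Col5a3/Col5a1, -0.067 to 0.00936 in males for Col6a1/Col6a2, and -0.072 to 0.0175 for the sex difference of the latter. The cause of these changes was not tested.

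Mice with the same replicate number did not consistently deviate together (r from -0.09 to 0.35 in males and from -0.11 to 0.15 in females). Not every sample correlated best with its own number. These values cannot show that no pairing existed. A replicate block left 0 collagens past the threshold in males, females and the interaction, with 10, 2 and 9 at an unadjusted p under 0.05, and the smallest sign-flip p for a ratio over 4 pairs was 0.125 (exact permutation), the lowest that 4 pairs allow, so no ratio could pass. Neither the block nor the library-number covariate was run between the WT groups. Those groups share no library number. Depth is unknown, so the counting error of low genes such as Col14a1 could not be given.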
